A study of Mus musculus with 8 samples.

Results

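The transcripts that encode a family of immune cell contact receptors, with adaptors and another receptor, were followed in effector regulatory T (eTreg) cells. The set holds 10 of the 49212 genes in the count files and was chosen by gene name, with no measured value in the rule. Earlier results of these data were known when it was chosen. It comprises 7 receptors of the signaling lymphocytic activation molecule (SLAM) family (Slamf1, Slamf6, Slamf7, Cd244, Cd48, Cd84 and Ly9), the adaptors Sh2d1a and Sh2d2a, and the receptor Crtam. RNA-seq was performed in the series on CD44+ YFP+ CD4+ CD3+ cells sorted from the spleen or the tumor of C57BL/6 mice bearing B16-OVA melanoma. The KO mice were Prdm1fl/flFoxP3YFP-Cre and the WT mice were FoxP3YFP-Cre, so both genotypes carried the YFP-Cre driven by Foxp3, and Prdm1, which encodes the transcriptional repressor Blimp1, was deleted from Foxp3-expressing cells only. All mice received tumor cells under the skin on day 0 and NP-OVA in the abdomen on days 0 and 7, and tumors measured at most 1.5 cm3. There were 4 groups of 2 libraries each: KO splenic, WT splenic, KO tumor-infiltrating (TIL) and WT TIL eTreg cells. Splenic cells were enriched for CD4 with beads before the sort, whereas TIL came from enzyme-digested tumors. The labels do not say whether replicates are separate mice, whether mice were pooled, or whether spleen and tumor came from the same mouse, so the p-values below measure only the spread between these samples.

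SLAM receptors are immunoglobulin-like proteins of blood cells, and most of them bind the same receptor on the opposing cell, while Cd244 binds Cd48. The tails of most of them recruit small SH2 adaptors. One of these, SAP, the product of Sh2d1a, couples several of the receptors to the kinase Fyn. In the absence of the adaptor the same tails can recruit phosphatases. Slamf1 and Slamf6 are typical of T and B lymphocytes, whereas Slamf7 (CRACC) and Cd244 are best known on NK cells, cytotoxic T cells and some myeloid cells. Crtam is not a SLAM protein but a nectin-like receptor of activated cytotoxic and NK cells that binds Cadm1, and it marks CD4 T cells with cytotoxic features.

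In the GRCm38 annotation of the count files the 7 SLAM receptor genes occupy a single stretch of 394.0 kb, chr1:171559193-171953170. Sh2d1a lies on chromosome X (42502453 to 42529330, plus strand), Sh2d2a on chromosome 3 (87846755 to 87855722, plus strand) and Crtam on chromosome 9 (40969691 to 41004628, minus strand). Within the stretch, Slamf7 (171632403 to 171653035) and Ly9 (171588624 to 171607410) are on the minus strand, and Cd244 (171559193 to 171609746), Cd48 (171682009 to 171705258), Slamf1 (171767127 to 171801184), Cd84 (171839697 to 171890718) and Slamf6 (171917515 to 171953170) are on the plus strand. A count is the number of unique reads within the exons of a gene. Exons of Slamf7 overlap an opposite-strand gene, Gm37787, over 423 nt (9.24% of exonic length), and exons of Sh2d1a overlap opposite-strand Tenm1 over 1465 nt (26.61%). Because strand use in the counting is not given in the sources used here, reads in those stretches cannot be told apart and the counts of both genes are uncertain to that extent. Ly9 lies inside the span of Cd244, but their exons share 0 nt.

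RefSeq (GRCm38.p6) gave a promoter for 6 of the 10 members (Slamf1, Slamf6, Slamf7, Cd244, Cd48 and Cd84); the others are Ly9, Sh2d1a, Sh2d2a and Crtam. The 250 bases before the start are printed, 5′ to 3′ on the strand of the gene, for the 4 of these 6 genes with the widest log2 fold changes between KO and WT TIL below, as Blimp1, the factor deleted in KO, binds DNA. Capitals mark the Blimp1 core GAAAGT, the T-box half-site AGGTGT or the RUNX site TGTGGT, searched on both strands. The RefSeq start of Slamf7 lies 4036 nt downstream of the start in the annotation of the count files, so its window falls inside the gene span given above, while the starts of the other 5 lie within 53 nt of it.
Slamf7 (chr1:171649000-171649249, minus strand): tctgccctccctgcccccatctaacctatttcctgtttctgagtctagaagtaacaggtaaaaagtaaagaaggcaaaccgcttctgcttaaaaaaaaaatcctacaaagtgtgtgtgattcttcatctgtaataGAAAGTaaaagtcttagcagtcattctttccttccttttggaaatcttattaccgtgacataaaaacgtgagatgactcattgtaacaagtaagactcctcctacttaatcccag
Cd244 (chr1:171558943-171559192, plus strand): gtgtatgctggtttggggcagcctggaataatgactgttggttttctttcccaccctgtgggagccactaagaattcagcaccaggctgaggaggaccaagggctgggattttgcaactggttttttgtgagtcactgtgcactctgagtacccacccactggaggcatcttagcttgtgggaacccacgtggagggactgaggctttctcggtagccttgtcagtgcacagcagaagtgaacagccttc
Slamf1 (chr1:171766882-171767131, plus strand): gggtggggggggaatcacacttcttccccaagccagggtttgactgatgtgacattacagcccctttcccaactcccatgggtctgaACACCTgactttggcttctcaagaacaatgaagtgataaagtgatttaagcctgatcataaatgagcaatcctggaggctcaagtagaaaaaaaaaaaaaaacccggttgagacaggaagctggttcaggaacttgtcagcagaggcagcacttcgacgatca
Slamf6 (chr1:171917212-171917461, plus strand): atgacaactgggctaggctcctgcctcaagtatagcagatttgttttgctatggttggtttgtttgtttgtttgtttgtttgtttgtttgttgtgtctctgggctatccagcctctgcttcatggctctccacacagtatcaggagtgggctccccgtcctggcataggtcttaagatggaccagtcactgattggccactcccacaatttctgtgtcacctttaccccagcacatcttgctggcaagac

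Slamf7 held 1 match, the Blimp1 core on its own strand ahead of the RefSeq start, and Slamf1 held 1 match, the T-box half-site on the opposite strand (read as ACACCT). Cd244 and Slamf6 held 0 matches to any of the 3 motifs in these windows. Cd48 held 1 RUNX site, and Cd84 held 1 T-box half-site and 1 RUNX site. Among 32851 mouse promoter windows of the same length, 12.32% held GAAAGT, 11.83% AGGTGT and 14.05% TGTGGT, and a match is a description of letters, not of binding.

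Depth was similar across libraries, between 27834676 and 43903859 counts on genes, and 3 counts correspond to 0.0645 to 0.112 CPM, that is counts scaled to a common library size with edgeR's trimmed mean of M values (TMM). The targeted gene, Prdm1, was at 90.7 and 75.1 CPM in KO TIL (replicates 1 and 2) against 108 and 192 CPM in WT TIL, and at 40.7 and 53.4 CPM in KO spleen against 54.1 and 21.0 CPM in WT spleen. Its counts were summed over all exons, and neither difference passed the test (log2 fold change -0.86, adjusted p = 0.554, and 0.32, adjusted p = 0.894, by edgeR's quasi-likelihood test), and these values do not show the deletion. Which exons were deleted is not given in the sources used here. The libraries labelled KO TIL stood apart in cell markers. Cd4 was at 148 and 66.2 CPM and Foxp3 at 10.2 and 2.99 CPM in the libraries labelled KO TIL, below the other libraries (384 to 1086 and 25.5 to 69.7 CPM). The CD8 T cell markers, Cd8a and Cd8b1, summed to 406 and 2222 CPM in KO TIL, 148 and 48.3 CPM in WT TIL and 15.0 to 30.7 CPM in spleen, with both genes higher in each KO TIL library than in each WT TIL library. The 5 NK cell markers summed to 61.0 and 101 CPM in KO TIL, 8.44 and 1.01 CPM in WT TIL and 9.53 to 15.1 CPM in spleen. Most of the sum in KO TIL replicate 2 was Klre1, at 90.3 CPM against 22.1 CPM in replicate 1. The other NK markers were higher in KO TIL replicate 1, with Ncr1 at 13.4 and 1.53 CPM and Klrb1c at 19.8 and 7.74 CPM. Ncr1, Klra4 and Klra8 were at 0 in every splenic library, and Klre1 was at 0 in both WT splenic libraries. Klra4 and Klra8 were at 0 in WT TIL replicate 2, and no NK marker was at 0 in KO TIL. The 5 Treg markers summed to 743 and 1364 CPM in KO TIL, 6137 and 8660 CPM in WT TIL and 1308 to 2223 CPM in spleen, and 5 of 5 were lower in KO than WT TIL without overlap. Most of the TIL sums was Ctla4, at 461 and 918 CPM in KO TIL and 4138 and 5721 CPM in WT TIL. Ikzf2 was at 64.0 and 44.3 CPM in KO TIL against 279 to 684 CPM in spleen. The 5 neutrophil markers summed to 375 and 198 CPM in KO TIL, 65.7 and 5.16 CPM in WT TIL and 0.779 to 19.95 CPM in spleen, with S100a8, S100a9 and Ly6g at 0 in WT spleen replicate 1, Ly6g at 0 in KO spleen replicate 1 and none at 0 in TIL. The 8 macrophage markers summed to 14760 and 1719 CPM in KO TIL, 3163 and 541 CPM in WT TIL and 309 to 2180 CPM in spleen. The highest splenic sum was that of WT spleen replicate 2. The 4 CD3 chain genes summed to 851 CPM in KO TIL replicate 1 against 3046 to 5105 CPM elsewhere. The 6 melanoma markers summed to 830 to 3201 CPM in TIL against 3.70 to 6.74 CPM in spleen, and Cd4, Slamf1, Slamf6 and Ly9 were lowest among splenic libraries in WT spleen replicate 2. In bulk RNA, more cells of a type and more RNA per cell cannot be told apart.

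The comparison of KO with WT TIL libraries asks which of these transcripts differ with the genotype label in the tumor. All were sorted as eTreg cells, but Cd4, Foxp3 and the other Treg markers were lower and the CD8 markers higher in KO TIL. Genotype and cell make-up therefore cannot be told apart here. Slamf7, Cd244 and Crtam lay higher in both KO TIL libraries than in either WT TIL library, Slamf1, Slamf6, Cd48 and Ly9 lay lower (the last 3 not with CD3 scaling), and Cd84, Sh2d1a and Sh2d2a overlapped. Of all 15935 genes tested, 18.0% lay higher and 19.4% lower in this way, beside 3 and 4 of the 10 members. With edgeR's test on the 4 TIL libraries, 0 of the 10 members was called (adjusted p under 0.05 and a log2 fold change beyond 1 in either direction), as was the case for 0 genes in all (0.0%), and 5 members (Slamf1, Slamf6, Slamf7, Cd244 and Crtam) had an unadjusted p under 0.05, against 9.87% of all genes. DESeq2's Wald test, the test of the study's methods, called 3 members (Slamf7, Cd244 and Crtam) at the same thresholds, against 4.69% of the 16234 genes it tested. Crtam stands among the NK cytotoxicity genes that the study drew from these libraries, so its direction here is not independent evidence.

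Slamf7 was at 300.0 and 163 CPM in KO TIL and 69.4 and 28.5 CPM in WT TIL, that is 231 ± 97.1 against 48.9 ± 28.9 CPM (mean ± SD, n = 2 each). Each KO TIL library exceeded each WT TIL library, with a log2 fold change of 2.24 (SE 0.56, adjusted p = 0.297 by edgeR and 0.0110 by DESeq2). Cd244, the partner of Cd48, was at 93.0 and 99.0 CPM in KO TIL and 14.4 and 3.65 CPM in WT TIL. The KO TIL replicates differed little from each other, and the log2 fold change was 3.41 (SE 0.70, adjusted p = 0.252 by edgeR and 0.00010 by DESeq2). Crtam was at 14.6 and 52.2 CPM in KO TIL and 5.75 and 0.945 CPM in WT TIL. Its replicates were far apart in both groups, with a log2 fold change of 3.32 (SE 1.06, adjusted p = 0.407 by edgeR and 0.0101 by DESeq2). The log2 fold change ranged from 1.72 to 3.01 for Slamf7, from 2.72 to 4.71 for Cd244 and from 2.11 to 5.13 for Crtam when each library was left out in turn. The CD8, NK and neutrophil marker sums were higher in the same libraries. Without overlap, 2 of 2 CD8, 4 of 5 NK and 4 of 5 neutrophil markers were higher, beside 18.0% of all genes. The macrophage sum overlapped (14760 and 1719 CPM in KO TIL, 3163 and 541 CPM in WT TIL), with 0 of 8 markers higher without overlap. The part of these cells in the values of the 3 transcripts was not tested.

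Scaled to the CD3 chain genes of each library, Slamf7 was at 35.3 and 5.11 CPM per 100 CPM of CD3 in KO TIL against 2.28 and 0.730 in WT TIL. Cd244 was at 10.9 and 3.11 per 100 CPM of CD3 against 0.473 and 0.0934, and Crtam at 1.72 and 1.64 against 0.189 and 0.0242. These 3 transcripts thus lay higher in KO TIL on either scale. On the CD3 scale the KO TIL replicates of Crtam were close, while those of Slamf7 and Cd244 moved apart. The WT TIL replicates of Crtam stayed far apart on that scale (0.189 and 0.0242). CD3 scaling moved the median log2 fold change of all genes from 0.04 to 1.35, and the values relative to CD3 are to be read against that shift.

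**Figure D1:**
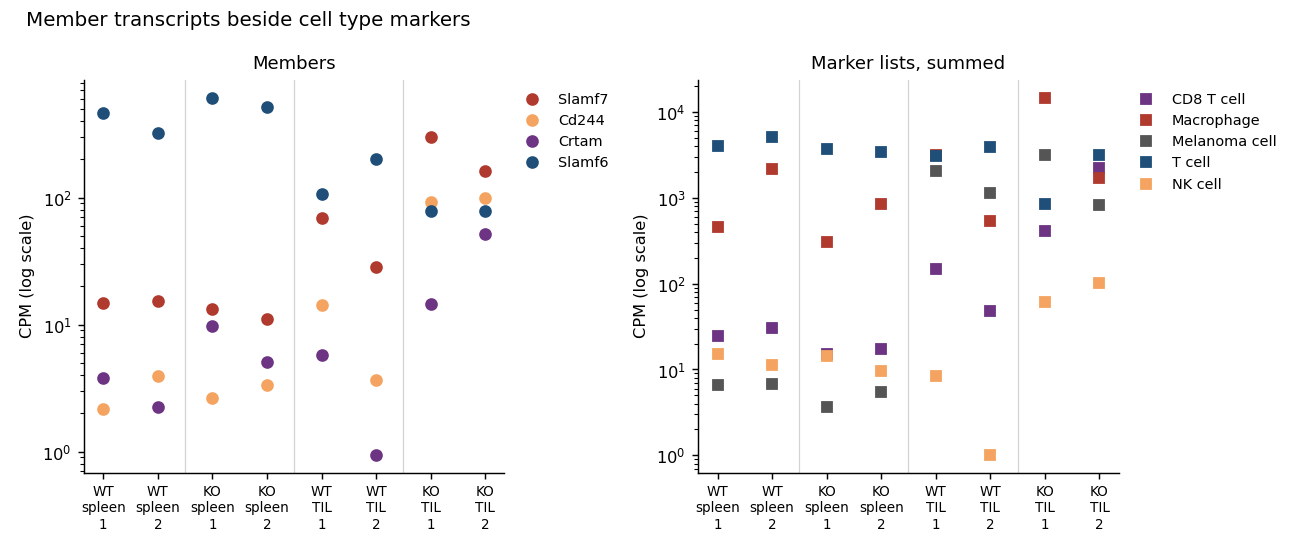
Levels of Slamf7, Cd244, Crtam and Slamf6 (left) and summed levels of marker lists (right) in CPM on log scales, for each of the 8 libraries. In KO TIL the CD8 T cell sum (406 and 2222 CPM) and the NK cell sum (61.0 and 101 CPM) are the highest, and the T cell sum, of the 4 CD3 chain genes, is lowest in KO TIL replicate 1 (851 CPM). Klre1 makes up most of the NK cell sum of KO TIL replicate 2 (90.3 CPM).

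In CPM, Slamf1 and Slamf6 lay on the other side. Slamf1 was at 30.2 and 72.1 CPM in KO TIL and 126 and 235 CPM in WT TIL, a log2 fold change of -1.82 (SE 0.55, adjusted p = 0.380 by edgeR and 0.0673 by DESeq2). Slamf6, a receptor of T and B cells, was at 78.7 and 78.1 CPM in KO TIL and 107 and 201 CPM in WT TIL, a log2 fold change of -0.98 (SE 0.39, adjusted p = 0.505 by edgeR). The groups did not overlap for these genes. WT TIL replicate 1 lay closer to KO TIL than WT TIL replicate 2 did, and without replicate 2 the log2 fold changes were -1.31 for Slamf1 and -0.46 for Slamf6. Without KO TIL replicate 2 that of Slamf1 was -2.60. Relative to CD3, Slamf6 overlapped between the genotypes (9.24 and 2.45 per 100 CPM of CD3 in KO, 3.51 and 5.16 in WT), and its log2 fold change was 0.43 against the median of 1.35 for all genes. Slamf1 lay lower relative to CD3 in KO (3.54 and 2.26 against 4.13 and 6.01 per 100 CPM of CD3).

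The other receptors differed less between the TIL genotypes. Cd48, the ligand of Cd244 and a lipid-anchored protein of most blood cells, was at 309 and 575 CPM in KO TIL and 600.2 and 599 CPM in WT TIL, a log2 fold change of -0.44 (SE 0.39). Ly9, a receptor that binds itself, was at 119 and 122 CPM in KO TIL and 153 and 172 CPM in WT TIL, a log2 fold change of -0.44 (SE 0.27). Cd84, another self-binding receptor, was at 243 and 122 CPM in KO TIL and 158 and 166 CPM in WT TIL, a log2 fold change of 0.17 (SE 0.40). Both KO TIL libraries lay below WT TIL for Cd48 and Ly9, by less than 1 on the log2 scale, and Cd84 overlapped. With CD3 scaling the log2 fold changes of Cd48 and Ly9 were 0.63 and 0.91, on the other side of 0 but below the median of all genes.

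Of the adaptors, Sh2d1a, which encodes SAP, was at 37.3 and 105 CPM in KO TIL and 43.4 and 92.3 CPM in WT TIL. The difference between replicates exceeded that between genotypes, with a log2 fold change of 0.06 (SE 0.62). Sh2d2a, which encodes the Lck-binding adaptor TSAd, was at 282.5 and 823 CPM in KO TIL and 494 and 529 CPM in WT TIL, a log2 fold change of 0.11 (SE 0.55). The WT TIL libraries lay between the KO TIL replicates for each adaptor. The median log2 fold change of the 10 members was 0.09, and that of all genes tested was 0.04.

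**Figure D2:**
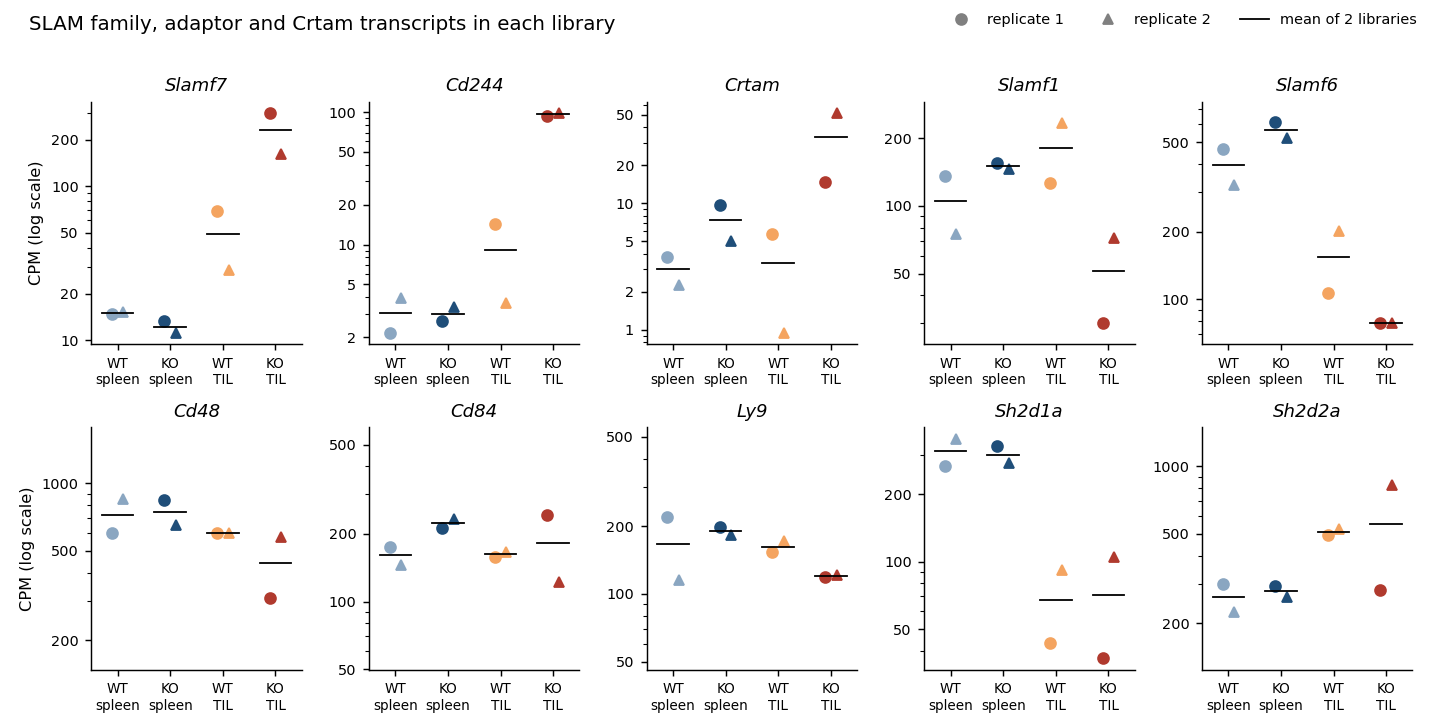
Level of each of the 10 transcripts in CPM (log scale, with its own range in each panel) in the WT and KO splenic and TIL groups. Points are libraries, with circles for replicate 1 and triangles for replicate 2, and lines are means of 2 libraries; on this scale Slamf7, Cd244 and Crtam are highest in KO TIL, where Slamf1 and Slamf6 are lowest.

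The same comparison in the spleen asks whether the genotypes differ outside the tumor. Here 0 of the 10 members passed by edgeR (0.0% of 16583 genes tested) or by DESeq2 (0.418% of 17927 genes), and 1 member, Crtam, had an unadjusted p under 0.05, against 2.95% of all genes. Without overlap, 4 members lay higher in KO spleen (Slamf1, Slamf6, Cd84 and Crtam), beside 16.4% of all genes, and 1 lay lower (Slamf7, with a log2 fold change of 0.028 under CD3 scaling), beside 15.7%. Crtam was at 9.69 and 5.07 CPM in KO spleen and 3.77 and 2.25 CPM in WT spleen, a log2 fold change of 1.29 (SE 0.54, adjusted p = 0.878 by edgeR). Slamf7 was at 13.4 and 11.2 CPM in KO spleen and 14.9 and 15.2 CPM in WT spleen, a log2 fold change of -0.30 (SE 0.35). Cd244 was at 2.66 and 3.37 CPM in KO spleen and 2.16 and 3.96 CPM in WT spleen, a log2 fold change of -0.02 (SE 0.54). These are the lowest transcripts of the set in spleen, and each stood above the level of 3 counts in all 4 splenic libraries.

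Slamf1 was at 155 and 146 CPM in KO spleen and 136 and 75.3 CPM in WT spleen, a log2 fold change of 0.51 (SE 0.39). Slamf6 was at 614 and 522 CPM in KO spleen and 467 and 324 CPM in WT spleen, a log2 fold change of 0.52 (SE 0.36). For both genes the groups did not overlap, and WT spleen replicate 2 was the lowest of the 4 libraries. Without that library the log2 fold changes were 0.15 for Slamf1 and 0.28 for Slamf6. Leaving out WT spleen replicate 1 made 2 members pass by edgeR, Slamf1 (log2 fold change 1.06) and Crtam (1.77), together with 3972 genes in all (22.1%), under the assumption that the lone WT library varies like the KO group. Without each of the other splenic libraries, 0 members passed. For Cd84 the KO splenic libraries held 213 and 233 CPM against 176 and 146 CPM in WT spleen, and for Ly9 they held 198 and 183 CPM against 219 and 116 CPM. For Cd48 they held 841 and 654 CPM against 599 and 849 CPM. The adaptor Sh2d1a stood at 326 and 274 CPM in KO spleen against 268 and 351 CPM in WT spleen, and Sh2d2a at 294 and 263 CPM against 300.0 and 225 CPM. Apart from Cd84 (log2 fold change 0.47, SE 0.33), these overlapped between genotypes, with log2 fold changes from -0.05 for Sh2d1a to 0.18 for Ly9. The median over the 10 members was 0.13, against -0.02 over all genes.

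In WT mice, the comparison of TIL with splenic eTreg cells asks what differs with the tissue when Blimp1 is present. Sh2d1a fell in WT TIL, to 67.8 ± 34.6 CPM from 309.5 ± 58.9 CPM (SD, n = 2), a log2 fold change of -2.19 (SE 0.51, adjusted p = 0.0333 by edgeR). It was the only member of 10 that passed edgeR's test (5.97% of 16427 genes passed), and DESeq2 called Sh2d1a and Slamf7 (10% of 18095 genes). The call for Sh2d1a was lost when WT spleen replicate 2, WT TIL replicate 1 or WT TIL replicate 2 was left out (adjusted p of 0.0931 to 0.600 by edgeR), in a fit of all 8 libraries (0.0677) and with CD3 scaling (0.0795), with log2 fold changes from -2.80 to -1.73 over the 4 omissions. Over 26.61% of its exonic length the counts of Sh2d1a cannot be told apart from those of Tenm1. Slamf7 was higher in each WT TIL library than in each splenic one, with a log2 fold change of 1.70 (SE 0.53, adjusted p = 0.0940 by edgeR and 0.0229 by DESeq2) that was 0.94 without WT TIL replicate 1 and 2.24 without replicate 2. Slamf6 was lower in each, with a log2 fold change of -1.36 (SE 0.49, adjusted p = 0.151 by edgeR). Together with Sh2d2a (log2 fold change 0.96, SE 0.45), 2 members were higher and 2 lower without overlap, beside 25.1% and 27.0% of all genes. Cd244 overlapped, since WT TIL replicate 2 (3.65 CPM) lay within the splenic range, and its log2 fold change of 1.56 (SE 0.76) was 0.27 without WT TIL replicate 1. Slamf1 (0.78, SE 0.50), Crtam (0.16, SE 0.85), Cd48 (-0.27, SE 0.46), Cd84 (0.01, SE 0.42) and Ly9 (-0.04, SE 0.46) overlapped as well, on the log2 scale of fold change. The median over members was 0.08 and that over all genes -0.04. In WT TIL against WT spleen, 2 of 2 CD8, 3 of 5 Treg, 3 of 6 dendritic cell and 6 of 6 melanoma markers were higher without overlap. Of the NK markers 2 of 5 were higher and 1 lower, and 1 of 4 CD3 chain genes and 3 of 5 B cell markers were lower. The CD8 sum was 148 and 48.3 CPM in WT TIL replicates 1 and 2. The macrophage sum was 3163 and 541 CPM in WT TIL and 464 and 2180 CPM in WT spleen, and so overlapped. Of the 8 macrophage markers, 1 was higher in WT TIL without overlap. The part of these cells in the member levels was not tested.

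In KO mice the same tissue comparison gave the widest differences of the set. Cd244 rose from 3.02 ± 0.501 CPM in KO spleen to 96.0 ± 4.25 CPM in KO TIL (SD, n = 2), a log2 fold change of 5.0 (SE 0.26, adjusted p = 0.0332 by edgeR). Slamf7 rose from 12.3 ± 1.57 to 231 ± 97.1 CPM, a log2 fold change of 4.26 (SE 0.42, adjusted p = 0.0374 by edgeR). Slamf6 fell from 568 ± 65.1 to 78.4 ± 0.377 CPM, a log2 fold change of -2.84 (SE 0.23, adjusted p = 0.0366 by edgeR). These 3 of 10 members passed edgeR's test, against 1.35% of 16933 genes. DESeq2 called 6 of 10, adding Slamf1, Sh2d1a and Crtam, against 19.9% of 19223 genes. The log2 fold changes of those were -1.55 (SE 0.44, adjusted p = 0.0981) for Slamf1, -2.08 (SE 0.52, adjusted p = 0.0820) for Sh2d1a and 2.18 (SE 0.71, adjusted p = 0.123) for Crtam by edgeR. They ranged from -2.27 to -1.06 for Slamf1, from -2.96 to -1.52 for Sh2d1a and from 1.03 to 2.82 for Crtam as each library was left out, with the extremes set by the KO TIL replicates. Without overlap, 3 members lay higher (Slamf7, Cd244 and Crtam) and 5 lower (Slamf1, Slamf6, Cd48, Ly9 and Sh2d1a), beside 30.6% and 32.9% of all genes. Cd48 (-0.75, SE 0.36) and Ly9 (-0.65, SE 0.19) differed by less than 1 on the log2 scale and changed sign with CD3 scaling (0.39 and 0.74), and Cd84 (-0.26, SE 0.40) and Sh2d2a (0.99, SE 0.52) overlapped. The median over members was -0.46, against 0.01 over all genes.

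Leaving out either KO splenic replicate removed every call by edgeR for the members and for all genes, with adjusted p of 0.104 to 0.140 for Slamf6, Slamf7 and Cd244, whereas 7 members passed without KO TIL replicate 1 (beside 19.7% of all genes) and 6 without KO TIL replicate 2 (beside 26.8%). In those 2 fits the lone KO TIL library was assumed to vary like the splenic group. Over these omissions the log2 fold change stayed between 4.87 and 5.22 for Cd244, 3.72 and 4.65 for Slamf7, and -2.92 and -2.70 for Slamf6. Relative to CD3, Cd244 and Slamf7 passed with log2 fold changes of 6.37 and 5.88, and Slamf6 did not (-1.44, adjusted p = 0.506 by edgeR), beside a median of 1.37 over all genes. In KO TIL against KO spleen, 2 of 2 CD8, 4 of 5 NK, 6 of 8 macrophage, 5 of 5 neutrophil, 5 of 6 dendritic cell and 6 of 6 melanoma markers were higher without overlap, and Cd4 and 4 of 5 Treg markers were lower. Of these lists edgeR called 3 neutrophil, 2 melanoma, 1 dendritic cell, 1 NK cell and 1 Treg marker, in either direction. The macrophage markers summed to 309 and 843 CPM in KO spleen against 14760 and 1719 CPM in KO TIL, and the part of these cells in the member levels was not tested. Each genotype comparison shares its libraries with the tissue comparisons, so the same KO TIL values enter both.

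**Figure D3:**
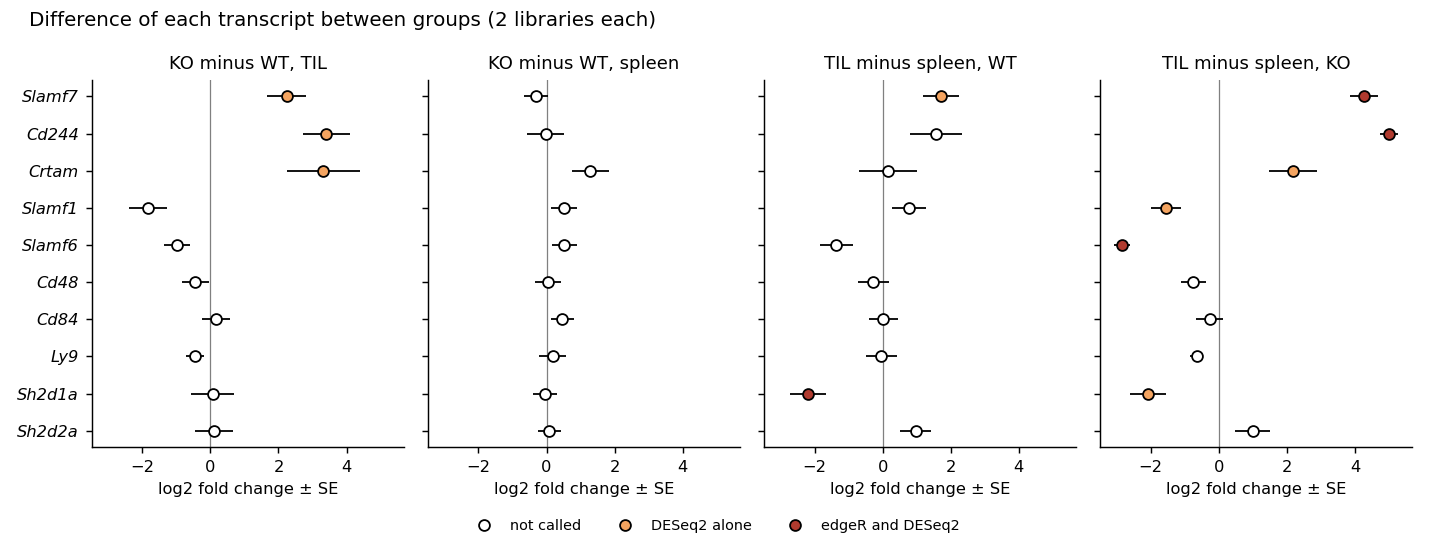
Log2 fold change of each transcript in the 4 comparisons, with bars of 1 SE from edgeR's quasi-likelihood fit of 2 against 2 libraries. Fill marks calls; 0 members are called by edgeR between genotypes, 1 (Sh2d1a) between the tissues in WT and 3 (Slamf7, Cd244 and Slamf6) in KO.

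Whether the genotype difference itself differed between tumor and spleen was tested as an interaction over all 8 libraries. By edgeR 0 of 10 members passed (0.0% of 17870 genes), and 4 had an unadjusted p under 0.05 (Slamf1, Slamf6, Slamf7 and Cd244), against 7.83% of all genes. DESeq2 called 2, Cd244 and Slamf7, against 1.86% of 16501 genes. The interaction, as a log2 difference of fold changes, was 3.43 for Cd244 (SE 0.86, adjusted p = 0.318 by edgeR and 0.0119 by DESeq2) and 2.54 for Slamf7 (SE 0.67, adjusted p = 0.344 by edgeR and 0.0432 by DESeq2). It was -2.33 for Slamf1 (SE 0.72, adjusted p = 0.439) and -1.50 for Slamf6 (SE 0.55, adjusted p = 0.537) by edgeR. Crtam, which was higher in KO in both tissues, had an interaction of 2.03 (SE 1.22, adjusted p = 0.781 by edgeR). Over the omission of each library it ranged from 2.77 to 4.77 for Cd244, 2.02 to 3.34 for Slamf7, -3.09 to -1.81 for Slamf1, -1.87 to -0.97 for Slamf6 and 0.83 to 3.86 for Crtam. For the other members it lay between -0.62 (Ly9) and 0.11 (Sh2d1a). The median was -0.14 over members and 0.07 over all genes.

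To compare the transcripts with each other, counts were divided by exonic length and scaled to the same total in each library (TPM). Cd48 led in every group, at 1682 ± 228 TPM in KO spleen, 1266 ± 158 in WT spleen, 1218 ± 13.8 in WT TIL and 865 ± 376 in KO TIL (SD, n = 2), with no overlap with the next transcript. In KO spleen Ly9, Sh2d1a, Slamf6, Sh2d2a, Cd84 and Slamf1 followed in that order, at means of 155 to 65.5 TPM, and of these neighbors Ly9, Sh2d1a and Slamf6 overlapped. In WT spleen the same 6 transcripts followed, at 119 to 40.0 TPM, and each overlapped the next, so their order there is not resolved. Slamf7 (7.19 TPM in KO and 7.15 in WT), Crtam (3.83 and 1.36) and Cd244 (1.67 and 1.26) came last in spleen. In WT TIL, Sh2d2a (208 TPM), Ly9 (119) and Slamf1 (70.9) followed Cd48, and Slamf7 (25.7), Cd244 (4.45) and Crtam (1.56) again came last. In KO TIL, Slamf7 came next by mean after Sh2d2a, at 117 ± 47.9 against 217 ± 152 TPM, and Cd244 stood at 45.7 ± 2.56 TPM. Below Cd48 each KO TIL transcript overlapped the next in the order (Ly9, Cd84, Cd244, Sh2d1a, Slamf1, Slamf6 and Crtam after Slamf7), so single ranks there are not resolved.

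The make-up of the SLAM receptor pool was described as the share of each receptor in their summed TPM, which does not depend on other genes. Cd48 held 60.3% of that sum in KO TIL replicate 1 and 75.6% to 87.2% in the other libraries. Slamf7 held 15.2% and 5.79% in KO TIL and 2.43% and 0.963% in WT TIL, against 0.330% to 0.488% in spleen. Cd244 held 4.42% and 3.31% in KO TIL, 0.473% and 0.116% in WT TIL and 0.0616% to 0.0993% in spleen. Slamf6 held 3.66% to 6.71% in spleen, 1.58% and 2.88% in WT TIL and 1.68% and 1.17% in KO TIL, so its share overlapped between the TIL genotypes. Slamf1 held 1.14% and 1.91% in KO TIL and 3.27% and 5.90% in WT TIL. The summed TPM itself was 994 and 1438 in KO TIL, 1495 and 1574 in WT TIL, 1324 to 1824 in WT spleen and 1983 to 2310 in KO spleen. TPM has no TMM scaling, and the scales order the splenic libraries differently. In CPM, Cd48, which held most of the sum, overlapped between the splenic genotypes (841 and 654 in KO, 599 and 849 in WT). It was at 1378 and 1155 TPM in WT spleen replicates 1 and 2.

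**Figure D4:**
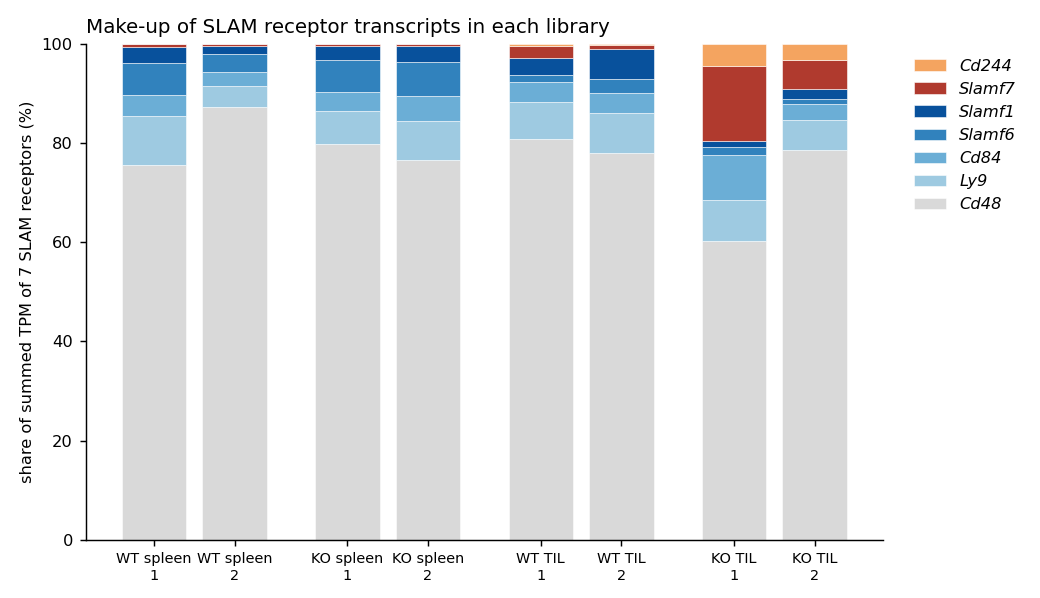
Share of each of the 7 SLAM receptors in their summed TPM (percent), as a stacked bar for each of the 8 libraries. Cd48 holds most of every bar, and Slamf7 and Cd244 together are visible mainly in the KO TIL bars, where Slamf7 holds 15.2% and 5.79%.

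Genes that share the SLAM locus differed in the sign of their tissue difference. In KO TIL against KO spleen, Cd244 and Slamf7 rose while Slamf6 fell, and Ly9, which lies within the span of Cd244, had a log2 fold change of -0.65. The stretch holds 12 other annotated genes, of which 4 to 6 had enough counts to be tested in the separate comparisons, and 0 of them passed edgeR's test in any. DESeq2 called 3 of them in KO TIL against KO spleen, where it called 19.9% of all genes: Gm37787, opposite to Slamf7 (log2 fold change 3.84, SE 0.87), Gm10521 (-4.06, SE 0.74) and Gm37065, opposite to Slamf6 (-2.45, SE 0.52). Gm37787, with 401 counts in the 8 libraries, has the sign of Slamf7, and reads in the 423 nt that their exons share cannot be told apart. Gm37065, with 842 counts, has the sign of Slamf6, and their exons share 0 nt.

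**Figure D5:**
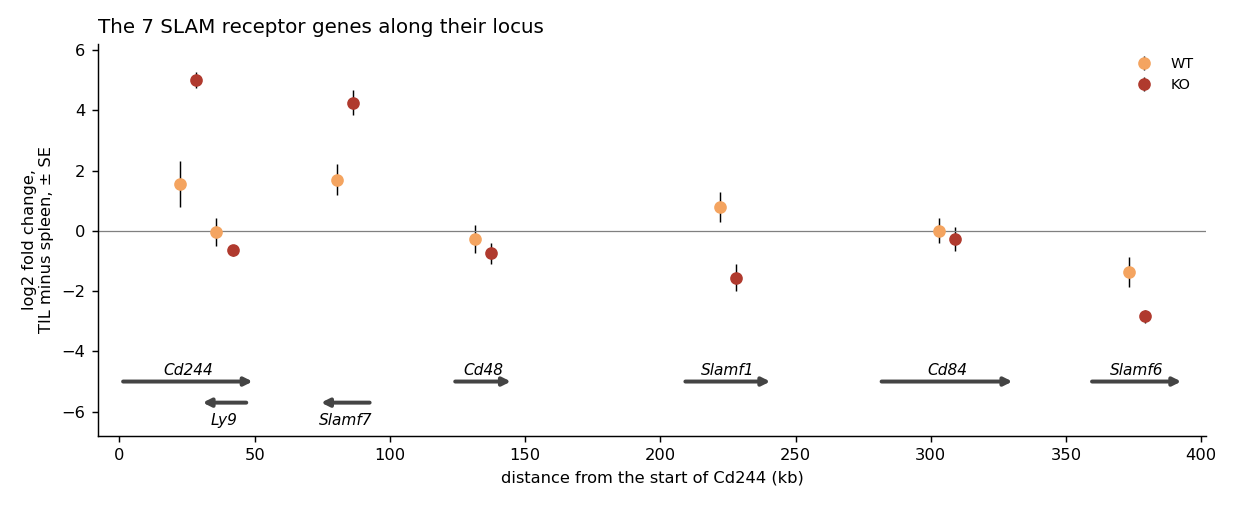
Log2 fold change of TIL against spleen (with bars of 1 SE) for the 7 SLAM receptor genes, placed by distance in kb from the start of Cd244, with arrows for gene spans and strands. In KO, Cd244 and Slamf7 lie at 5.0 and 4.26 and Slamf6 lies at -2.84, with Cd48, Slamf1 and Cd84 between them along the locus.

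The wider pathway was taken from a list of 24 genes for related receptors, kinases, phosphatases and adaptors that act with the SLAM family, of which 23 were tested. By edgeR 0 of 23 passed in any of the 5 comparisons, with 5 at an unadjusted p under 0.05 between the TIL genotypes, 0 between the splenic genotypes, 5 between tissues in WT and 7 in KO, and 4 for the interaction. Of all genes, 9.87%, 2.95%, 20.5%, 31.0% and 7.83% had such a p in these comparisons. DESeq2, which called 4.69% of all genes between the TIL genotypes, called 2 of the list there. It called Cd2, an adhesion receptor related to the SLAM family, lower in KO than WT TIL, with 190.0 and 440.2 CPM against 1226 and 1664 CPM (log2 fold change -2.20, SE 0.51, adjusted p = 0.278 by edgeR). It called Rasa1, a regulator of Ras, higher, with 78.7 and 98.9 CPM against 35.5 and 23.9 CPM (log2 fold change 1.58, SE 0.34, adjusted p = 0.259 by edgeR). Between tissues DESeq2 called 3 of the list in WT and 4 in KO, beside 10% and 19.9% of all genes. It called Slamf8 and Slamf9, SLAM members best known in myeloid cells, higher in TIL in WT (3.15 and 2.13 as log2 fold changes) and in KO (5.33 and 5.42). Slamf8 was at 281 CPM in KO TIL replicate 1, the library with the highest macrophage sum, and at 26.2 CPM in replicate 2, against 35.5 and 5.20 CPM in WT TIL and 1.20 to 3.93 CPM in spleen. Fyn, the kinase that SAP recruits, was called lower by DESeq2 in WT TIL (log2 fold change -1.73), and in KO TIL Cd2 was called lower (-1.52) and Ptpn6, a phosphatase gene, higher (1.15). Sh2d1b1, an adaptor gene whose product acts with Slamf7 and which was picked out after its values were seen, was at 15.8 and 3.25 CPM in KO TIL and 3.34 and 1.59 CPM in WT TIL, with KO TIL replicate 2 just below WT TIL replicate 1. The list median between the TIL genotypes was 0.07, against 0.04 for all genes.

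The nectin family, to which Crtam is related, was taken as 9 genes with its partners, of which 7 to 9 were tested. By edgeR 0 passed in any comparison, with 1 at an unadjusted p under 0.05 between the TIL genotypes, 0 between the splenic genotypes, 3 between tissues in WT, 3 in KO and 0 for the interaction, beside the shares of all genes just given. DESeq2 called 3 of 9 in KO TIL against KO spleen, beside 19.9% of all genes: Cadm1, the ligand of Crtam, higher (log2 fold change 2.33, SE 0.94), Nectin3 higher (4.87, SE 1.57) and the receptor Cd96 lower (-1.51, SE 0.51). Cadm1 was at 95.5 and 21.7 CPM in KO TIL and 35.1 and 19.5 CPM in WT TIL, so ligand and receptor were highest in different KO TIL libraries. Nectin3 had at most 1.94 CPM in any library and was at 0 in KO spleen replicate 1 and in both WT spleen libraries. The list median was 0.56 between the TIL genotypes and 1.33 between the tissues in KO, beside 0.04 and 0.01 for all genes.

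Over the 8 libraries, which share the 4 groups and so are not independent, the members followed opposed patterns. The log2 CPM of Slamf7 and Cd244 had a Pearson correlation of 0.964, Slamf6 and Slamf7 of -0.952 and Slamf6 and Sh2d1a of 0.882. Crtam had 0.747 with Cd244 and 0.613 with Slamf7. Among 17870 genes, those with the pattern most like Slamf7 were Gm20056, Hdc, Tsga10, Rab44 and Irx5 (0.994 to 0.987), those most like Slamf6 were Ralgps2, Cbx7, Gm15440, A430078G23Rik and Calhm2 (0.995 to 0.990), and those most like Crtam were Gm15518, Topbp1, Exph5, Casc4 and Carnmt1 (0.990 to 0.962). The transcripts of the members were not rich in GC. The richest 200-nt window of the longest GENCODE M21 transcript held 50.0% (Cd48) to 62.0% (Sh2d2a) GC, and 0 of 10 exceeded 75%, while 14.92% of genes did, with a median log2 fold change between the TIL genotypes of 0.48 against -0.0011 for the rest.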

How the data were processed

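RNA-seq was analyzed for 8 libraries of sorted eTreg cells, 2 each from KO and WT spleen and tumor. The authors trimmed reads with Trimmomatic 0.36, aligned them to GRCm38 with STAR 2.5.2b and counted unique reads within exons with featureCounts of Subread 1.5.2. The raw counts they deposited for every gene and library were the only values used. A deposited table of normalized values was not used. Whether counting used strand, and how many mice gave each library, are not given in the sources used here.

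The groups came from the labels. Each comparison was fitted on its 4 libraries with edgeR 4.0.16 in R 4.3.3 (TMM scaling, filterByExpr, quasi-likelihood test, Benjamini-Hochberg adjustment over all genes tested), and the interaction was fitted on 8 libraries. Calls needed an adjusted p under 0.05 and a log2 fold change beyond 1 in either direction, as in the study's methods. The SE of a log2 fold change was its magnitude over the root of F. DESeq2 1.42.0 (Wald test), the study's own tool, was an alternative, as were fits over 8 libraries, DESeq2's size factors, total counts or the CD3 chain genes as scaling, no filter, a replicate block and the omission of each library. Log2 CPM used a prior count of 2. The level of 3 counts covers counting error alone, since amplified reads that carry no molecular identifier do not count molecules. Replicates differed by more than sampling noise (chi-square of 37.2 to 344 for each degree of freedom).

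Named were all 10 members, Prdm1, the genes of the SLAM signaling list, the nectin-family list and the SLAM locus that a tool called, the 5 genes most like Slamf7, Slamf6 and Crtam, and cell markers. The members and lists were chosen with earlier results of these data known.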

Additional observations from a re-analysis of the deposited data

Results flagged for a closer look

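The genotype difference of 3 members had opposite signs in the tissues, with both KO libraries on one side of both WT libraries in the tumor and on the other side in the spleen. Of all genes tested, 18.0% lay higher and 19.4% lower without overlap in KO TIL, and 16.4% and 15.7% in KO spleen. The share of all genes that did so with opposite signs in the tissues was not counted, so these 3 members cannot be set against it. Slamf7 was higher in KO TIL and lower in KO spleen, with an interaction of 2.54 on the log2 scale. Slamf1 and Slamf6 were lower in KO TIL and higher in KO spleen, with interactions of -2.33 and -1.50. The difference was tested as an interaction over 8 libraries, and edgeR's adjusted p was 0.344 for Slamf7, 0.439 for Slamf1 and 0.537 for Slamf6. By DESeq2 the interaction passed for Slamf7 (adjusted p = 0.0432) and not for Slamf1 (0.0946) or Slamf6 (0.312). With CD3 scaling, Slamf7 in spleen had a log2 fold change of 0.03 and Slamf6 in TIL one of 0.43, so the opposite signs of these 2 genes depend on the scaling.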

How the results depend on the processing

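Of 630 comparisons of a value with an alternative, 510 kept direction and side of the threshold, 45 gained a call, 13 lost one and 62 changed sign; the causes were not tested. Members called between the TIL genotypes numbered 0, and 3 by DESeq2, 4 by DESeq2 over 8 libraries, 4 with no filter and 3 with the replicate block, where genes called in all were 0, 761, 930, 1072 and 728. Between tissues in WT, 1 was called, and 2 by DESeq2, 3 by DESeq2 over 8 libraries, 0 by edgeR over 8 libraries, 0 with CD3 scaling and 2 with no filter (981, 1810, 2173, 671, 1078 and 1922 genes in all). Between tissues in KO, 3 were called, and 6 each by DESeq2, DESeq2 over 8 libraries and no filter (228, 3819, 3302 and 3183 genes in all). For the interaction 0 were called, and 2 by DESeq2 and 3 with no filter (0, 307 and 752 genes in all). Left-out libraries gave 0 to 2 members between the splenic genotypes (21 to 3972 genes in all), 0 to 1 between tissues in WT (213 to 1401) and 0 to 7 in KO (0 to 4958), and 0 members and 0 genes between the TIL genotypes and for the interaction.

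The labels do not say whether equal replicate numbers mark shared mice or days. Deviations of same-numbered libraries correlated at 0.234 for TIL and 0.155 for spleen between genotypes, and at -0.0243 in WT and -0.22 in KO between tissues. The replicate block gave 2 members and 192 genes between tissues in KO, and a crossed block, added after seeing the data, gave 6 members and 2934 genes. The block turned the log2 fold change of Sh2d1a and Sh2d2a between the TIL genotypes (-0.019 and -0.087), Cd244 in spleen (0.029), Ly9 and Crtam between tissues in WT (0.028 and -0.29), and the interaction of Sh2d1a and Sh2d2a (-0.0030 and -0.021).

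CD3 scaling moved the median log2 fold change of all genes to 1.35 and 0.31 between the TIL and splenic genotypes, 0.33 and 1.37 between tissues in WT and KO, and 1.07 for the interaction. It gave, between the TIL genotypes, 0.43 for Slamf6, 0.63 for Cd48 and 0.91 for Ly9. It gave, in spleen, 0.028 for Slamf7, 0.37 for Cd244 and 0.30 for Sh2d1a. It gave 0.15 for Cd48 and 0.28 for Ly9 between tissues in WT, and 0.39 for Cd48, 1.37 for Cd84 and 0.74 for Ly9 in KO. Its interactions were 0.24 for Cd48, 1.0 for Cd84 and 0.46 for Ly9. In spleen, Cd244 was at 0.014 by DESeq2, 0.013 with its size factors, 0.074 with total counts and 0.052 with no filter, and Sh2d1a at 0.028 with total counts and 0.015 with no filter. In WT between tissues, Ly9 was at 0.017 by DESeq2 or with its size factors and 0.010 with no filter. With total counts, which moved the median of all genes to -0.18 in WT and -0.24 in KO, Cd84 was at -0.13 and Crtam at -0.016 in WT, and the interaction of Sh2d2a at -0.038, or -0.023 with no filter.

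Ranges of the log2 fold change with each library left out that crossed 0 were, between the TIL genotypes, -0.41 to 0.57 for Cd84, -0.88 to 0.70 for Sh2d1a and -0.88 to 0.68 for Sh2d2a. In spleen they were -0.33 to 0.49 for Cd244, -0.13 to 0.32 for Cd48, -0.20 to 0.78 for Ly9, -0.17 to 0.16 for Sh2d1a and -0.10 to 0.36 for Sh2d2a. Between tissues in WT they were -0.48 to 0.044 for Cd48, -0.074 to 0.17 for Cd84, -0.39 to 0.51 for Ly9 and -1.65 to 0.97 for Crtam, and in KO -0.87 to 0.17 for Cd84. For the interaction they were -0.89 to 0.12 for Cd84, -0.80 to 0.78 for Sh2d1a and -0.94 to 0.59 for Sh2d2a. The precision of each comparison rests on 2 libraries a group, and other depths were not tested.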

Other observations

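The receptors that share nectin ligands did not follow Crtam between the TIL genotypes. Tigit, an inhibitory receptor of T and NK cells, was at 67.0 and 148 CPM in KO TIL and 278 and 386 CPM in WT TIL. Cd226, the activating receptor for the same ligands, was at 49.3 and 197 CPM in KO TIL and 124 and 176 CPM in WT TIL. Cd96 was at 86.4 and 241 CPM in KO TIL and 102 and 175 CPM in WT TIL. Tigit thus lay lower in KO TIL without overlap, and Cd226 and Cd96 overlapped. Pvr, a ligand of all of these, was at 79.2 and 31.8 CPM in KO TIL and 31.6 and 41.0 CPM in WT TIL, and overlapped as well. None of them passed edgeR's or DESeq2's test in this comparison. These genes were picked from the nectin-family list after their values were seen.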
